A study of Mus musculus with 5 samples.

Results

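Peaks of TLX and of the histone mark H3K27ac were examined at 10 mouse genes of the Sox family of transcription factors, out of 21887 protein-coding genes annotated in mm10. The genes are those of the family that were picked by name, and every peak called within 100 kb of a gene body was taken: 42 of 7458 TLX peaks and 121 of 31266 H3K27ac peaks in neural stem cells (NSC), and 7 of 1436 TLX peaks and 112 of 31597 H3K27ac peaks in brain tumour stem cells (BTSC). Each of these 4 chromatin immunoprecipitation groups is 1 library, so values have no replicate check and no test between cultures was made. In the TLX groups, NSC or BTSC cultures carried TLX with a 3xTY1 tag from a retrovirus and the tag was precipitated; in the H3K27ac groups, cells were not transduced. The remaining sample, an MSCV-neo empty-vector control with no antibody, was not analysed here. The TLX groups therefore describe tagged protein added to the cells. The labels do not say how the tumour cells arose, from which strain, or from how many animals, and their culture protocol speaks of neural stem cells for every sample. A mark present in fewer cells and a weaker mark per cell cannot be told apart in bulk chromatin.

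Sox proteins bind the minor groove of DNA through an HMG box and bend it. The SoxB1 genes Sox1, Sox2 and Sox3 keep neural progenitors undifferentiated, and Sox21, of SoxB2, counteracts them. Sox4 and Sox11 (SoxC) act in newly formed neurons, Sox5 and Sox6 (SoxD) lack an activation domain and act as cofactors that time neuronal and glial differentiation, and Sox8 and Sox9 (SoxE) act in glial development, with Sox9 also needed for neural stem cells. TLX, encoded by Nr2e1, is a nuclear receptor that maintains neural stem cells, mostly as a repressor. H3K27ac marks active promoters and enhancers.

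The sequences shown are the 250 bases before the 5 annotated starts that lay under a TLX peak, taken from RefSeq on build GRCm38.p6 (the assembly of mm10); 8 of the 10 genes matched the table, with 13 starts in all. The leading Sox6 stretch is shown because the TLX summits of both cultures fell inside these bases, 142 bases before the start in NSC and 220 in BTSC. A further start of Sox6, within the gene, and the starts of Sox2, Sox11 and Sox21 are shown because an NSC TLX peak overlapped them. All are written 5′ to 3′ on the strand of the gene. Capitals mark AGGTCA or its reverse complement TGACCT, the core letters of many nuclear receptor sites, and ACAAT or its reverse complement ATTGT, the core letters of Sox sites.
Sox6, chr7:116031048-116031297, minus strand: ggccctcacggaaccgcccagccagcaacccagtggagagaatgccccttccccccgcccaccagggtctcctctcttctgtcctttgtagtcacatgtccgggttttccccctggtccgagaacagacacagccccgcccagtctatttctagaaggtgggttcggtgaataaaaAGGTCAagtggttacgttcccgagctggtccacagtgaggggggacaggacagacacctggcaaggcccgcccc
Sox6, chr7:115824711-115824960, minus strand: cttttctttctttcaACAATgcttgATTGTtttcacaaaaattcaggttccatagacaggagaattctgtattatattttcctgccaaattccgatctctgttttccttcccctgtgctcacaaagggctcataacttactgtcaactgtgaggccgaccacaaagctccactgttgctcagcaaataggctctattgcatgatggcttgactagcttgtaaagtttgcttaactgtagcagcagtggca
Sox2, chr3:34649745-34649994, plus strand: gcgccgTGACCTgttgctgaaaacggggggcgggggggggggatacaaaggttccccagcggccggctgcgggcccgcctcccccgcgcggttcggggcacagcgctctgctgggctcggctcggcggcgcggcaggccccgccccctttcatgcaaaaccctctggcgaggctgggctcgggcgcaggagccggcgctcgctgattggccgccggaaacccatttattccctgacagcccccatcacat
Sox11, chr12:27342719-27342968, minus strand: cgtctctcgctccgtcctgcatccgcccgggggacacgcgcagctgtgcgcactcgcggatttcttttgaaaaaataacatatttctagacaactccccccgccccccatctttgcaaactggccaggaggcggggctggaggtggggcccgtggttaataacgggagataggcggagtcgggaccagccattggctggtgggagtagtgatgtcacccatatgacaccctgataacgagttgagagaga
Sox21, chr14:118237031-118237280, minus strand: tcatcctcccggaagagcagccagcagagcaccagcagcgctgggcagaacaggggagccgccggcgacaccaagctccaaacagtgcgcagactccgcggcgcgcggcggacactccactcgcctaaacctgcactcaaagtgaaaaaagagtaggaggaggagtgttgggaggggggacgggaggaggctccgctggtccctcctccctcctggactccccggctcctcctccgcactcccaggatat
The letters AAGTCA, known as the preferred core of TLX, were in none of these 5 stretches on either strand, in 2 of the 13 windows of these genes and in 13.1% of 32841 such windows genome-wide. AGGTCA, chosen after the sequences had been read, was found 74 bases before the start in the leading Sox6 stretch. In Sox2 its reverse complement stood 244 bases before the start. It was in 4 of the 13 windows and in 14.03% of all. ACAAT was in 4 of the 13 and 27.7% of all, and in the internal Sox6 stretch it stood 235 bases before the start, with its reverse complement at 225. The Sox11 and Sox21 stretches held no match, and none overlapped another in the other 3. Of the 13 windows, 6 are starts of Sox6, so the windows are not separate genes. Among windows of protein-coding genes alone, the shares were 11.5% for AAGTCA, 12.8% for AGGTCA and 25.1% for ACAAT. A match is a description of letters and not a binding site.

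TLX peaks were called near 9 of the 10 Sox genes in NSC and near 5 in BTSC. Over all protein-coding genes, 55.5% had an NSC TLX peak in the same window and 16.1% a BTSC peak. Sox1, Sox2, Sox6, Sox9 and Sox21 had peaks in both lists, against 15.2% of all genes. Sox4, Sox5, Sox8 and Sox11 had peaks in NSC and none called in BTSC (40.3% of all genes), and Sox3 had none in either. No Sox gene had a BTSC peak without an NSC peak (0 of 10, against 0.923% of all genes). The genes differ in length, with Sox5 and Sox6 spanning 953863 and 569905 bp and the others between 2065 and 8451 bp, and a longer gene has a longer window. Within 10 kb of the body the counts were still 9 and 4, against 24.8% and 5.12% of all genes. The files hold no read numbers, so the depth is unknown and a missing peak is one not called at that depth.

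**Figure D1:**
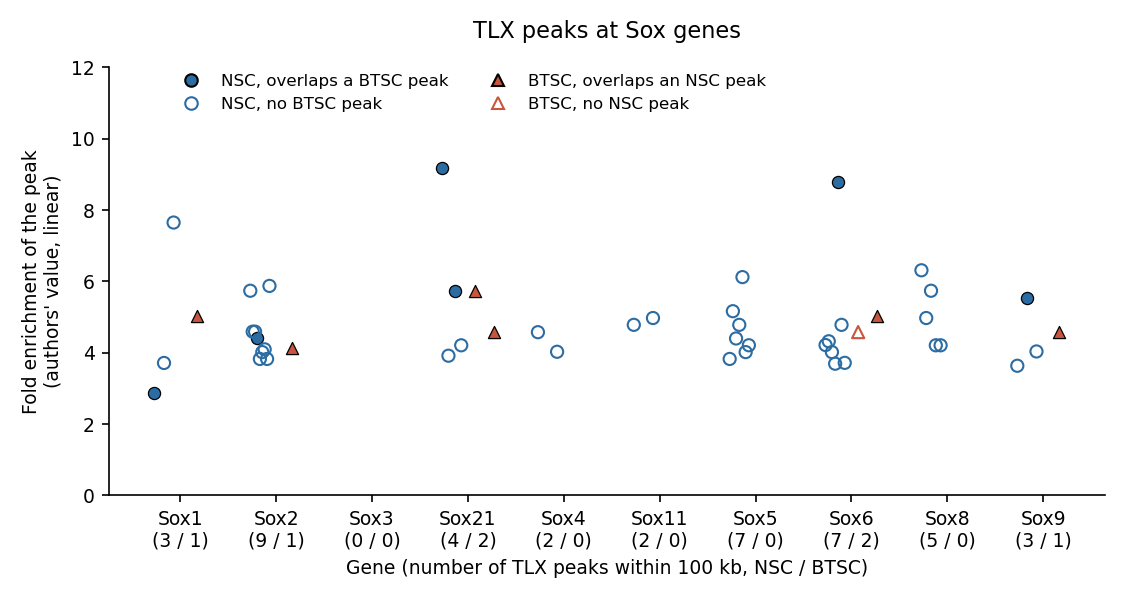
Fold enrichment (authors' linear value per peak) of each TLX peak within 100 kb of 10 Sox genes; circles are NSC, triangles BTSC, filled symbols overlap a peak of the other culture. The highest values are the NSC peaks at Sox21 (9.18) and Sox6 (8.80), both filled, while 36 of the 42 NSC symbols are open.

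Near Sox1, on chromosome 8 (12395519 to 12399555), a peak inside the gene was called in both cultures. It ran from 12396910 to 12398012 in NSC, near the bottom of that list (rank 7417 of 7458). Its fold enrichment was 2.86 and its −log10 q 2.73 (the authors' values, q being the p-value adjusted for multiple testing). In BTSC it ran from 12397453 to 12397904, with a fold of 5.04, a −log10 q of 6.78 and rank 818 of 1436. The summits lay 512 bp apart. The strongest peak of the Sox1 window, from 12486155 to 12487191, had a fold of 7.65 and a −log10 q of 20.5 in NSC, but lay 91109 bp past the start of Sox1 and closer to the start of Spaca7. The remaining NSC peak (12430120 to 12430540, fold 3.71) lay inside the long non-coding gene Sox1ot.

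Sox2, the SoxB1 gene most used as a marker of neural stem cells, on chromosome 3 (34649995 to 34652461), had 9 TLX peaks in NSC, the most of the 10 genes; 99.8% of protein-coding genes had fewer. All 9 lay inside Sox2ot, the long non-coding gene that contains Sox2, and 7 of them were grouped within 23434 bp, from 34642093 to 34665526. The strongest ran from 34662796 to 34665526, with its summit 13205 bp past the start, a fold of 5.87 and a −log10 q of 13.2. The peak at the promoter, from 34648784 to 34650003, had a fold of 4.40, and its summit lay 693 bp before the start. This was the site also called in BTSC, from 34648835 to 34649429, with a fold of 4.12, a −log10 q of 3.98 and a summit 108 bp away. A further pair of NSC peaks, with folds of 5.74 and 4.59, lay 88077 and 83842 bp before the start. None of the 9 was among the strongest 1436 NSC peaks, the number called in BTSC.

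Sox3, on the X chromosome (60891366 to 60893430), had no TLX peak in either list. The X chromosome held 0.536% of all NSC TLX peaks and 2.48% of NSC H3K27ac peaks. H3K27ac itself was called over the start of Sox3 in both cultures, 5399 bp wide in NSC, 6087 bp in BTSC.

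Sox21, on chromosome 14 (118233233 to 118237030), had 4 TLX peaks in NSC and 2 in BTSC, and both BTSC peaks overlapped NSC peaks. The strongest TLX peak of the whole set lay just past its 3′ end, from 118230166 to 118231030, with a fold of 9.18, a −log10 q of 28.4 and rank 409 in NSC. The BTSC peak there ran from 118230288 to 118230776, with a fold of 5.72, a −log10 q of 9.13 and rank 546, also the highest BTSC rank of the set. The summits were 33 bp apart, the closest of the 6 overlapping pairs. The other shared pair covered the gene itself: 118234095 to 118237479 in NSC (fold 5.74), which included the start, and 118234549 to 118235766 in BTSC (fold 4.58). Their summits were 947 bp apart. A further NSC peak of the window, from 118322677 to 118323147 (fold 4.21), lay 85893 bp before the start of Sox21 and closer to the start of Gm9376.

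Both SoxC genes had a TLX peak in the gene in NSC and none in BTSC. In Sox4, on chromosome 13 (28948919 to 28953699), it ran from 28951741 to 28953157, with a fold of 4.03 and a −log10 q of 5.49. The strongest peak of its window (28860085 to 28860506, fold 4.57) was 93424 bp past the start. In Sox11, on chromosome 12 (27334268 to 27342718), a peak from 27341278 to 27343456 covered the start, with a fold of 4.78. A second Sox11 peak, from 27356735 to 27358014 and 14946 bp before the start, was the stronger, with a fold of 4.97 and a −log10 q of 8.66.

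The windows of the long SoxD genes held 7 TLX peaks each in NSC. In Sox5, on chromosome 6 (143828425 to 144782287), the strongest lay at the 5′ end of the gene, from 144781329 to 144782210, with its summit 473 bp from that end, a fold of 6.12 and a −log10 q of 13.4. Another 4 lay inside the gene with folds from 3.82 to 5.16, and 2 lay before it. No BTSC peak was called at Sox5; chromosome 6 as a whole had 769 TLX peaks in NSC and 75 in BTSC, or 9.75 per 100, against 19.3 per 100 over the genome, and the part of this in the Sox5 result was not tested.

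In Sox6, on chromosome 7 (115470872 to 116040776), the leading peak lay at the annotated start whose sequence is given above. It ran from 116030806 to 116032552 in NSC, with a fold of 8.80, a −log10 q of 26.4 and rank 494. In BTSC it ran from 116030917 to 116032187, with a fold of 5.04 and a −log10 q of 6.78, and the summits were 78 bp apart. Weaker NSC peaks stood on either side within 4828 bp, with folds of 3.69 and 4.78. A peak at the internal start shown above (115824656 to 115825466) had a fold of 4.02. The NSC peak from 116093108 to 116093527 (fold 3.72) lay 52430 bp from the nearest Sox6 start. It was 174 bp from a start of another gene, 1110004F10Rik. The other Sox6 peak of BTSC, from 115730093 to 115730502 inside the gene, had a fold of 4.58 and was the 1 BTSC peak of 7 without an NSC counterpart, although H3K27ac was called over it in both cultures, 14802 bp wide in NSC, 15768 bp in BTSC.

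Of the SoxE genes, Sox8 on chromosome 17 (25565893 to 25570686) had 5 TLX peaks in NSC and none in BTSC. The strongest, from 25519015 to 25519914 with a fold of 6.31 and a −log10 q of 14.2, was closer to the start of Sstr5, and another lay inside Lmf1. The other 3 were grouped within 12201 bp at Sox8, with folds of 4.97, 5.74 and 4.21, the last inside the gene. Sox9, on chromosome 11 (112782210 to 112787757), had a weak NSC peak inside the gene (112784703 to 112785135, fold 3.63). Its strongest site lay outside, 23609 bp from the nearer gene end, from 112811103 to 112811886, with a fold of 5.55 and a −log10 q of 11.0 in NSC. The BTSC peak there ran from 112811463 to 112811919, with a fold of 4.58, a −log10 q of 5.33 and a summit 288 bp away.

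**Figure D2:**
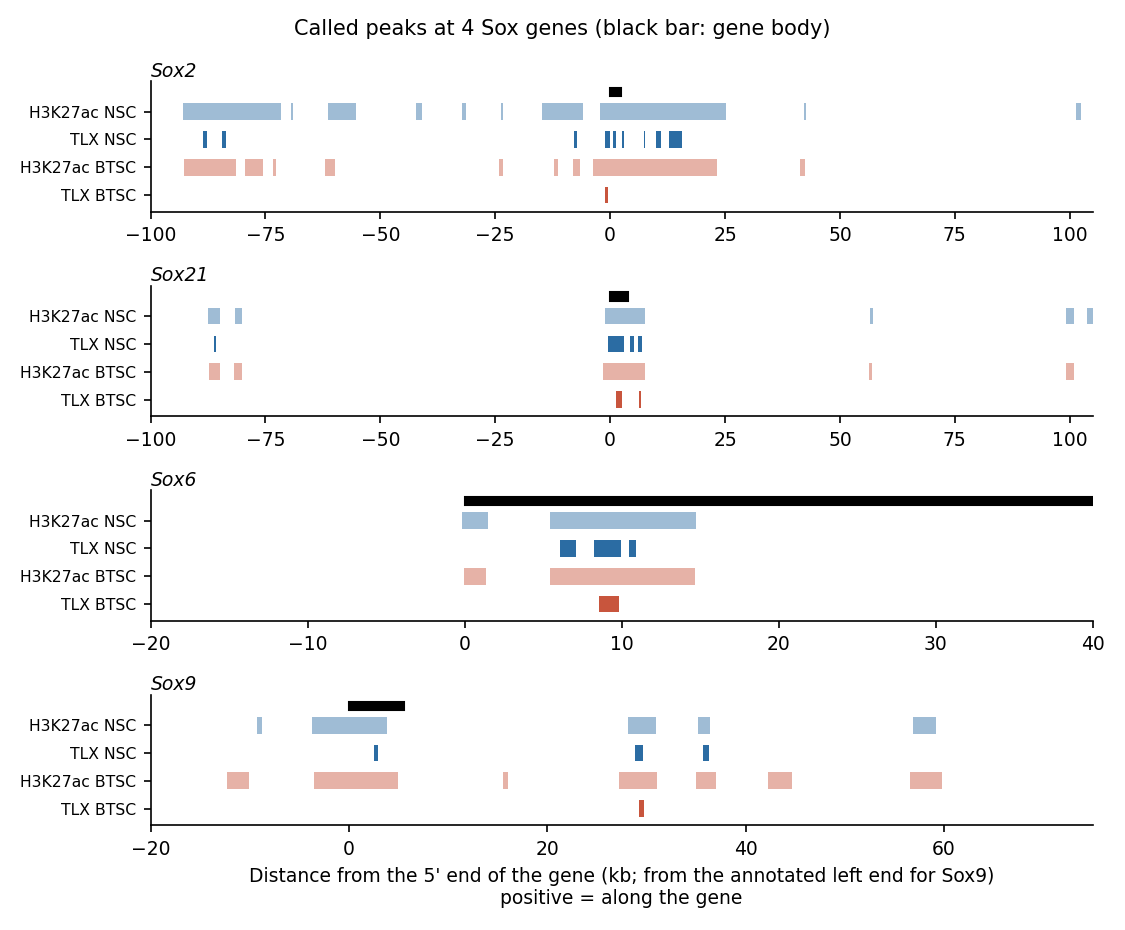
Called peaks of the 4 lists at Sox2, Sox21, Sox6 and Sox9 as boxes along the distance in kb from the 5′ end of the gene (from the left end for Sox9, whose strand the table does not give), with the gene body as a black bar. Each BTSC TLX box has an NSC TLX box at the same place and lies in a wider H3K27ac box of either culture; the Sox6 view covers 60 kb and leaves out the gene's other peaks.

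Most TLX peaks at Sox genes were of modest strength within their lists. The median −log10 q was 6.52 for the 42 NSC peaks, against 8.66 over the NSC list, and 11 of the 42 were above that list median. For the 7 BTSC peaks it was 5.33 against 7.54, with 1 above. The 6 NSC peaks that overlapped a BTSC peak had a median of 11.4 (2.73 to 28.4), and the 36 without one had 6.33 (3.96 to 20.5). This split was not made over the whole NSC list, so the contrast is not shown to be particular to Sox genes. Of the NSC peaks, 6 of 42 overlapped a BTSC peak (14.3%, exact Clopper-Pearson 95% interval 5.43 to 28.5), close to the 15.8% over the NSC list. Of the BTSC peaks, 6 of 7 overlapped an NSC peak (85.7%, 42.1 to 99.6), against 81.8% over the BTSC list. When the NSC list was reduced to the number of peaks called in BTSC, 3 of the 10 genes kept an NSC peak (Sox1, Sox6 and Sox21), against 5 with a BTSC peak. Of all genes, 15.9% then had one. The peak kept for Sox1 was the one 91109 bp past its start and closer to the start of Spaca7, not the one shared with BTSC.

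TLX peaks at Sox genes lay in acetylated chromatin. In NSC, 41 of 42 overlapped an H3K27ac peak of the same culture (97.6%, 87.4 to 99.9), against 91.6% over all NSC TLX peaks; the exception, from 144814780 to 144815231 before Sox5, was outside H3K27ac of BTSC too. In BTSC it was 7 of 7 (100%, 59.04 to 100), against 93.2%. Per 10 kb of H3K27ac-covered sequence, the Sox windows held 1.00 TLX peaks in NSC (exact Poisson 95% interval 0.718 to 1.36) and 0.174 in BTSC (0.0699 to 0.358). Over the genome the values were 0.996 and 0.181, so in either culture the number of TLX peaks per acetylated length at these genes was close to that of the genome. The intervals cover counting error only.

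Of NSC summits, 18 of 42 lay inside the Sox gene and 5 (11.9%, 3.98 to 25.6) within 1 kb of an annotated start of it, those of Sox2, Sox5, Sox21 and both Sox6 starts shown above. Of BTSC summits, 4 of 7 lay inside and 2 within 1 kb of a start, at Sox2 and Sox6. Inside any protein-coding gene lay 20 of the 42 NSC summits (47.6%, 32.0 to 63.6), against 63.8% over the NSC list. In BTSC the share was 4 of 7 (57.1%, 18.4 to 90.1), against 58.6%. Counting starts of any protein-coding gene, 6 of the 42 NSC summits lay within 1 kb of one (14.3%, 5.43 to 28.5), against 35.9% over the NSC list. For BTSC it was 2 of 7 (28.6%, 3.67 to 71.0), against 25.5%. In 7 of the 10 windows the Sox gene was the sole protein-coding gene. The gene table gives no exons, so whether a peak inside a gene was exonic or intronic was not determined.

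H3K27ac was called within 1 kb of a start of all 10 Sox genes in both cultures, as for 51.0% of protein-coding genes. None of the 10 had it in NSC alone (2.44% of all genes), in BTSC alone (1.87%) or in neither (44.7%). Over the whole lists H3K27ac covered 68.5 Mb in NSC and 74.1 Mb in BTSC. The covered length in the 10 windows summed to 409901 bp (NSC) and 402810 bp (BTSC). It was greater in BTSC for 7 genes and in NSC for 3; scaled to the covered length of each whole list, it was greater in BTSC for 3, namely Sox1, Sox6 and Sox9. At a difference of 1.5-fold or more, 2 genes had more in NSC, Sox5 and Sox11, against 12.5% of 18473 genes with H3K27ac in their window, and 0 had more in BTSC, against 18.1%. The median log2 ratio of BTSC to NSC was 0.06 for the 10 genes. It was 0.13 over the 17785 protein-coding genes with covered length in both cultures.

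**Figure D3:**
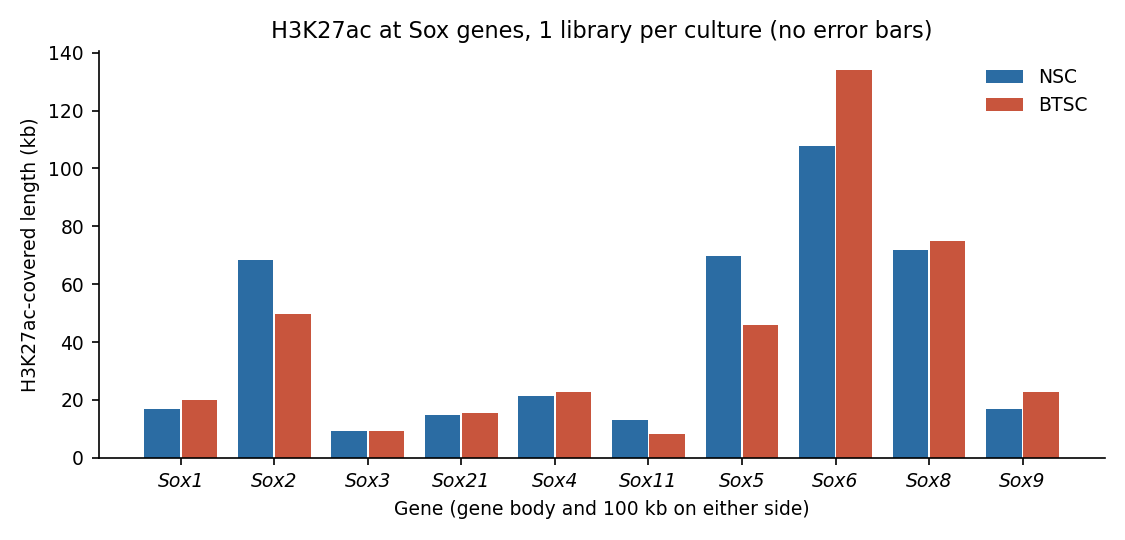
H3K27ac-covered length in kb within the body and 100 kb on either side of each Sox gene, with 1 bar per library and no error bars. Sox2, Sox5 and Sox11 have the taller bar in NSC and the other 7 in BTSC, of which Sox3, Sox4, Sox8 and Sox21 are close to equal.

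The window of Sox11 had 12899 bp under H3K27ac in NSC against 8236 in BTSC, a log2 ratio of -0.65. The peak over its start was 7461 bp wide in NSC, with a fold of 19.8, and 5859 bp in BTSC, with a fold of 16.8. The peak that held its upstream TLX site was 1795 bp wide in NSC and 841 bp in BTSC, and a pair of weak NSC peaks had no BTSC counterpart. With peaks of −log10 q of at least 5 alone, the log2 ratio was -0.32 and under the 1.5-fold limit.

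For Sox5 the covered length was 69617 bp in NSC against 45808 in BTSC, a log2 ratio of -0.60. Its widest peak was nearly alike, with 6345 bp in NSC (144052544 to 144058888, fold 23.7) and 5857 bp in BTSC (fold 23.3). Of its 30 NSC peaks, 8 had no BTSC counterpart, the strongest of them with a −log10 q of 4.11. The whole of chromosome 6 had a log2 ratio of -0.34, whereas the chromosomes of the other 9 genes ranged from -0.06 to 0.20. Relative to its chromosome the ratio of Sox5 was -0.26, and with the stricter q it was -0.38; both are under the limit of 1.5-fold.

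For Sox2 it was 68405 bp in NSC against 49749 in BTSC, a log2 ratio of -0.46. Its central domain, over the gene and 6 of the NSC TLX peaks, was of similar width in both, with 27340 bp in NSC (34647829 to 34675168, fold 25.6) and 27036 bp in BTSC (34646239 to 34673274, fold 21.8). Most of the difference lay upstream. There a domain 21421 bp wide in NSC (34557008 to 34578428), which held the far pair of TLX peaks, stood against BTSC peaks of 11294, 3883 and 754 bp. An NSC peak of 8951 bp before the central domain stood against BTSC peaks of 1022 and 1526 bp. Within 10 kb of the gene the log2 ratio was -0.09.

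The remaining genes had equal or greater covered length in BTSC. Sox9 had 16840 bp (NSC) and 22656 bp (BTSC), a log2 ratio of 0.43; within 50 kb it was 0.68, past 1.5-fold. The peak over its start was 7529 bp wide in NSC, 8484 bp in BTSC. The region that held its shared TLX site was 2855 bp wide in NSC and 3835 bp in BTSC, and the next one 1162 and 1954 bp. Sox6 had 107766 and 133948 bp, a log2 ratio of 0.31, and its widest domain, inside the gene, measured 15147 bp in NSC (115659499 to 115674645) and 20942 bp in BTSC (115656915 to 115677856). The region over its leading TLX site was 9311 bp wide in NSC and 9206 bp in BTSC, with a fold of 34.4 in either.

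Sox1 had 16722 bp (NSC) and 20050 bp (BTSC). At its start, NSC peaks of 4451 and 1393 bp stood against 1 BTSC peak of 8038 bp. The fold was 9.13 for the wider NSC peak and 17.6 for the BTSC peak, each within its own list. Folds, here and above, were not scaled between libraries, so they give no size of a difference between cultures. The widest NSC peak of the Sox1 window, 5744 bp over the TLX site in Sox1ot, had a BTSC counterpart of 5666 bp. Sox4 had 21485 and 22767 bp, with 6864 bp over the gene in NSC and 12545 bp in BTSC, where the peak joined what were 2 peaks in NSC. Sox8 (71968 and 74770 bp), Sox21 (14914 and 15510 bp) and Sox3 (9285 and 9316 bp) had log2 ratios of at most 0.06. For these 3 and Sox4 the side that had more turned with scaling to the whole list, which has more covered length in BTSC by 0.11 on the log2 scale. The widest peak that reached into the Sox8 window, over the TLX peak inside Lmf1, measured 31731 bp (NSC) and 28653 bp (BTSC). In both cultures it ran past the edge of the window, and only the part inside counted towards the covered length of Sox8. The peak over Sox21 and its leading TLX site was 8691 bp wide in NSC and 9114 bp in BTSC, with folds of 20.02 and 29.4. Sox21 was the most alike, with 91.1% of the bp covered in either list covered in both. Sox5 and Sox9 were the least alike, with 52.5% and 52.9%.

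**Figure D4:**
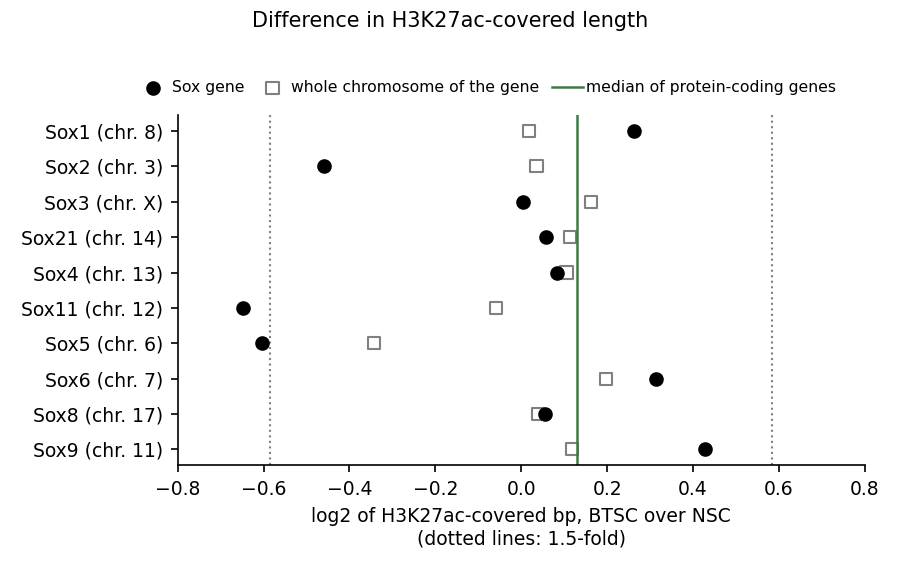
Log2 of H3K27ac-covered bp, BTSC over NSC, for each Sox gene (black points), beside the same ratio for its whole chromosome (open squares). The line is the median (0.13) of the 17785 protein-coding genes with covered length in both cultures. Dotted lines mark 1.5-fold. Sox11 (-0.65) and Sox5 (-0.60) are past the left line, and the square of chromosome 6 is also left of the others.

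By peak number, 98 of 121 NSC H3K27ac peaks at Sox genes overlapped a BTSC peak (81.0%, 72.9 to 87.6), against 79.0% over the list, and 96 of 112 BTSC peaks overlapped an NSC peak (85.7%, 77.8 to 91.6), against 76.8%. The 23 NSC peaks and 16 BTSC peaks without a counterpart were narrow, with medians of 850 and 779.5 bp against 2291.5 and 2370.5 bp for shared ones. None of them held a TLX peak or a start of a Sox gene. Over the whole lists, 20.2% of NSC and 4.05% of BTSC H3K27ac peaks held a TLX peak of the same culture. Width and TLX content of peaks without a counterpart were not computed over the whole lists, so neither is shown to be particular to Sox genes.

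Of the other 9 Sox genes, 6 had an NSC TLX peak within 100 kb and 2 a BTSC peak, against 55.5% and 16.1% of all genes. Those in both were Sox10, a marker of the oligodendrocyte lineage (3 in NSC and 1 in BTSC), and Sox13 on chromosome 1 (2 and 1). Chromosome 1 as a whole had 461 TLX peaks in NSC and 297 in BTSC. That is 64.4 per 100, against 19.3 over the genome, and its part in the Sox13 result was not tested. Sox7, Sox12, Sox18 and Sox30 had 1 or 2 in NSC. H3K27ac was at a start of 3 of the 9 in both cultures (51.0% of all genes), Sox10, Sox12 and Sox13. Sox30 had it in BTSC alone (1.87% of all genes). The whole window of Sox30 went the other way, with 32013 bp covered in NSC against 16245 in BTSC, a log2 ratio of -0.98. Of the 9 genes, 1 had 1.5-fold or more in NSC and 0 in BTSC (12.5% and 18.1% of all genes with H3K27ac).

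Of 10 partners of Sox proteins, 9 had an NSC peak and 5 a BTSC peak (55.5% and 16.1% of all genes). Those in both were the nuclear factor I genes Nfia (15 in NSC and 2 in BTSC) and Nfib (8 and 4), the chromatin remodeller gene Chd7 (6 and 2) and the POU factor genes Pou3f1 (7 and 1) and Pou3f3 (6 and 3). Pou3f3 is on chromosome 1, with its 64.4 BTSC TLX peaks per 100 NSC peaks. H3K27ac-covered length was 1.5-fold or more higher in BTSC for 3 of the 10, Chd7, Nfib and Nfia, with log2 ratios of 1.59, 1.24 and 0.78 (chromosome 4, which holds all 3, had 0.13), and 1.5-fold or more higher in NSC for 0 (18.1% and 12.5% of all genes with H3K27ac). Of 14 genes reported as Sox targets in neural cells, 9 and 5 had TLX peaks, to be read against the same shares. Those in both were Olig2 (9 and 5), Notch1 (6 and 3), Slc1a3 (4 and 3), Egfr (3 and 3) and Gfap (2 and 1). Of these targets, Egfr and Prom1 had 1.5-fold or more higher covered length in BTSC, and Ccnd1, Mbp and Dcx in NSC. Dcx, a gene of young neurons, had 2355 bp in NSC and none called in BTSC.

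The labelled cell types were set beside H3K27ac at the starts of marker genes. It was called at 5 of 6 neural stem cell markers in both, the exception being Pax6. Of 5 neuron markers, it was called at 3 in NSC and 1 in BTSC. It was called at 0 of 5 microglia, 0 of 4 endothelial and 0 of 4 markers of other tissues in either culture. Of all protein-coding genes, 51.0% had it at a start in both cultures, 2.44% in NSC alone, 1.87% in BTSC alone and 44.7% in neither. Sox2 is among the 6 stem cell markers and also among the Sox genes examined, so that count is not independent of the results above.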

How the data were processed

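The deposited files are 4 peak lists in mm10, each called by the authors on 1 library, narrow for TLX and broad for H3K27ac. The submitters' processing notes name Bowtie, ChIPseeker and bcl2fastq (2.17.1.14). The peak caller was not given in the sources used here. For each peak the authors deposited a linear fold enrichment over background, the p-value and q-value as −log10, and a score that is 10 times the latter without decimals; these rank or describe peaks within 1 list, and the narrow lists add a summit position. The files give no read counts, so the depth is unknown and limits which peaks could be called.

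Peaks were assigned to a gene when they overlapped its body or 100 kb on either side, with RefSeq genes of GRCm38.p6, and a shared bp made peaks of different lists overlap (Python 3.11.15, pandas 2.3.3, scipy 1.17.1). Starts were those of the RefSeq promoter table and the 5′ gene end, or either end for Sox3 and Sox9, which had no entry there. Positions are 1-based. Window counts and overlaps were checked on simulated peaks. H3K27ac was compared as covered bp, with 1.5-fold as the limit. Alternatives were windows of 50 and 10 kb, a −log10 q of at least 5, TLX lists of equal number, a reciprocal overlap of 50%, summits within 200 bp, summits inside H3K27ac, scaling to the chromosome or list, joining within 1 kb, and 2.5 kb around starts. Leaving out Sox5, counting peaks by nearest start, and the AGGTCA search were chosen after seeing the data. The genes and lists were chosen with earlier results of these data known. By rule, all 10 Sox genes are named, with the peak of highest q per TLX list and the widest H3K27ac peak, and genes of the other lists where TLX was called in both cultures (other Sox genes wherever it was called); Sox12 at starts and the 1.5-fold genes were named after their values were seen. A gene of the target and oligodendrocyte marker lists, and the counts that turn on it, are not reported here.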

Additional observations from a re-analysis of the deposited data

How the results depend on the processing

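Of 46 recomputed summary values 40 stayed within 1.5 times the reported count or within the interval of the reported share, and 6 did not. TLX peaks in NSC numbered 27 within 10 kb and 3 with lists of equal number, when 3 genes had one; both alternatives take fewer peaks by construction. Genes with 1.5-fold more H3K27ac in NSC numbered 0 with a −log10 q of at least 5 and 1, Sox11, relative to the chromosome. Genes with 1.5-fold more in BTSC numbered 1, Sox9, within 50 kb. Among recomputed log2 ratios of single genes, 37 kept their side and their standing against 1.5-fold, and 13 did not. Of the 6 shared TLX pairs, 3 had summits within 200 bp (Sox2, Sox6 and a Sox21 pair). A reciprocal overlap of 50% was met by 3 (Sox6, Sox9 and a Sox21 pair), and 2 met both. Each rule left 7.14% of NSC and 42.9% of BTSC peaks shared, against 14.3% and 85.7% reported. These shares count as within the reported interval, which covers counting error only and runs from 42.1 to 99.6 for the 7 BTSC peaks. Counting each peak for the nearest start left 37 NSC and 7 BTSC peaks. No H3K27ac peaks lie within 1 kb of each other in either list, so joining changed nothing. No paired analysis was possible because each group is 1 library. No TY1 library from untagged cells is among the samples, and what the antibody binds besides TLX was not tested.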

Other observations

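Among H3K27ac peaks at Sox genes without a counterpart in the other culture, the strongest were at Sox4. An NSC peak of 1305 bp (28884605 to 28885909 on chromosome 13, −log10 q of 13.5) lay 68442 bp past the start of Sox4. A BTSC peak of 2656 bp (29014115 to 29016770, −log10 q of 12.4) lay 61743 bp before it. In Sox5, a BTSC peak of 1522 bp inside the gene (144203383 to 144204904, −log10 q of 9.39) had no NSC counterpart, although the gene as a whole had less covered length in BTSC. None of these 3 regions held a TLX peak. They were chosen after their values were seen.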
